A study of Mus musculus with 4 samples.

Results

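miR-223, a microRNA made in cells of the myeloid lineage, was followed through 4 small-RNA libraries from the mouse macrophage-like line RAW264.7, together with F630028O10Rik, the long noncoding transcript that carries its hairpin. Rows of the deposited table were taken by name, as all transcripts that the GENCODE M21 annotation assigns to Mir223 or F630028O10Rik. This gave 3 of the 141239 rows: the Mir223 hairpin and the host isoforms F630028O10Rik-201 and F630028O10Rik-202. Their counts were also added together, and the sum is called the miR-223 unit below. By their labels, the cells expressed 1 of 2 short hairpin RNAs under doxycycline control: shNS, which silences no gene, or shDis3l2, which is directed at Dis3l2, the exonuclease that degrades RNAs with oligouridine tails. All 4 groups received doxycycline at 1 µg per mL, for 3 days and then for a further 24 h in medium with vesicle-depleted serum. Cells were lysed at the end of those 24 h, and extracellular vesicles were isolated from the medium of many flasks by centrifugation and flotation in sucrose, then treated with micrococcal nuclease. Each combination of compartment and hairpin is 1 library of this single cell line, so no difference between 2 libraries has a replicate check, and the intervals below cover counting error only.

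miR-223 is among the most abundant microRNAs of neutrophils and monocytes. Its gene is switched on by myeloid transcription factors such as PU.1 and C/EBP proteins, and the microRNA represses, among others, the transcription factor Mef2c and the inflammasome sensor Nlrp3. The primary transcript is cut by Drosha in the nucleus to a hairpin, which Dicer then cuts to a short duplex. The strand from the 3′ side of the hairpin (miR-223-3p) is the one that is mainly loaded into Argonaute proteins, while the other strand (miR-223-5p) is usually scarce. miR-223 is also a well-known cargo of vesicles released by blood cells, and the RNA-binding protein YBX1 has been reported to sort it into them.

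The sequences that define the members are given here because the results turn on where reads of miR-223 can be placed. They come from RefSeq (GRCm38.p6), written 5′ to 3′. In the hairpin the capitals mark miR-223-3p, and in the mature strands they mark the seed, bases 2 to 8, which pairs with targets.
Mir223 hairpin: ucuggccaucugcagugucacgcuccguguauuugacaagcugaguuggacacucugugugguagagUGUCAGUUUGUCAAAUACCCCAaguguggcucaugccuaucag
mmu-miR-223-5p: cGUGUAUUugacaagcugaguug
mmu-miR-223-3p: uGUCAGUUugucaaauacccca
The hairpin of 110 nt lies on the plus strand of chromosome X (GRCm38) from 96242817 to 96242926. The 5p strand takes positions 26 to 48 of it and the 3p strand positions 68 to 89. Of the 1738 mature mouse microRNAs in the RefSeq table, 1 has the seed of miR-223-3p and 1 the seed of miR-223-5p, which are these strands themselves, so no other microRNA of that table shares either seed.

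The host gene spans 96239926 to 96243636 on the same strand, in all 3711 nt. F630028O10Rik-201 has 3 exons and 2771 nt, and the hairpin lies in the last of them (96241038 to 96243636), 710 nt before the end of the transcript. F630028O10Rik-202 has 2 exons and 3255 nt. Its last exon (96240413 to 96243636) runs through an intron of the other isoform and holds the hairpin too. Of the 141767 transcripts in the annotation's sequence file, 3 contain the whole hairpin sequence, and these are the 3 members. The sequence of miR-223-3p occurs in the same 3 transcripts and in no other on either strand. A read of mature miR-223 therefore matches all 3 rows equally well. The annotation types the host gene as antisense. Vsig4, which encodes a complement receptor of tissue macrophages, lies on the minus strand (96247203 to 96293438), 3566 nt beyond the end of the host gene, and does not overlap it. Vsig4 was listed with 2 counts in the cell library labelled shDis3l2 and with 0 in the other 3 libraries. It was looked up for its position.

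**Figure D1:**
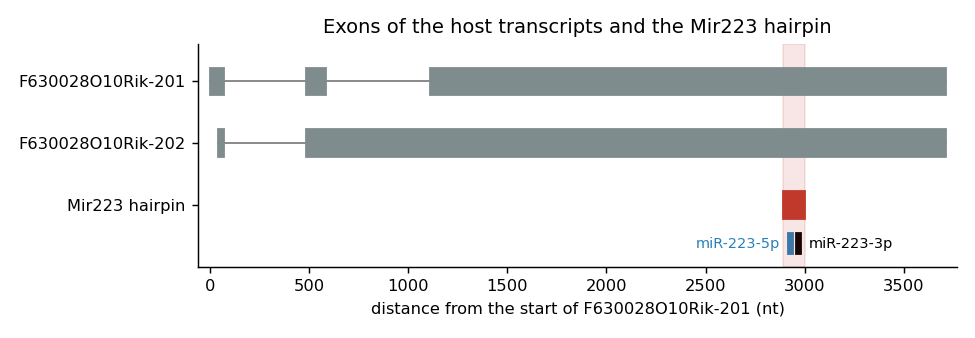
Exons of F630028O10Rik-201 and F630028O10Rik-202 (grey boxes, introns as lines) and the 110 nt Mir223 hairpin (red) against the distance in nt from the start of F630028O10Rik-201, with the 5p and 3p strands drawn below the hairpin. The hairpin lies within the last exon of both host isoforms.

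All counts of the miR-223 unit stood under the name of the host and none under the name of the microRNA. Where miR-223 is given a level below, it is that of the unit, and so of the host's counts. The Mir223 row was 0 in each of the 4 libraries. With 3 counts as the limit that a count of 0 allows, the row could hold at most 0.00196% and 0.0106% of the unit in the cell libraries (shNS, then shDis3l2, the order of labels in all pairs of values below), and at most 0.0152% and 0.0343% in the vesicle libraries. F630028O10Rik-201 was listed with 152869 and 28363 counts in cells, and vesicles had 19665 and 8732. F630028O10Rik-202 was listed with 29 and 52 counts in cells, and vesicles had 10 of them with either label. It thus held between 0.0190% (exact 95% interval 0.0127 to 0.0272) and 0.183% (0.137 to 0.240) of the unit, both extremes being in cells, the lowest with the label shNS. The values are estimates that a quantifier divides among transcripts, so the 0 of the hairpin row is no measure of how much miR-223 there was. Whether the counts of the host stem from mature miR-223, from its precursor or from other parts of the transcript cannot be told from a table of 1 value per transcript.

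Many microRNAs that lie in an exon were counted in this way. Of 114 such units with at least 100 counts over the 4 libraries (hairpins summed with every same-strand transcript whose exon holds them and that has at least 10% of the joint counts), 69 had under 1% of their counts on the hairpin row and 48 had 0. The miR-223 unit, with 209730 counts in all, ranked 7 by counts among the 114. Among the other units with the most counts, the hairpins of miR-29b and miR-29c with their host A330023F24Rik had 0.00629% of 413367 counts on the hairpins, miR-101a with E130102H24Rik 0.00295% of 372715, and miR-24 with 2010111I01Rik 0.00138% of 288958. The 6 hairpins of the miR-17-92 cluster with Mir17hg had 0.987% of 1095993, but the share differed by library, at 0.00023% and 0% in cells against 3.16% and 8.47% in vesicles. The unit of Mir93 and Mir25 with Mcm7 was unlike these, with 62.5% of its 1437348 counts on the hairpins. Host shares near 100% were therefore common among these units. As a host needed at least 10% of the joint counts to form one, the frequency among all exonic microRNAs is not given.

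By counts, F630028O10Rik-201 stood far above the other transcripts typed as antisense in cells. It was the highest of 4503 transcripts of that type in both cell libraries, with 75.3% of all their counts under the label shNS and 41.5% under the label shDis3l2. The next in those libraries were Gm48311 with 7747 counts and 1700001D01Rik with 4461. In vesicles it ranked 2 and 5, behind others such as H3f3aos with 34793 and 33809 counts, and held 17.8% and 5.99% of the class. These ranks are of counts, not of levels per length. As reads of miR-223 also match F630028O10Rik-201, the ranks do not give the level of the host as a long transcript.

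The libraries held 17612856 to 19741041 counts each, of which annotated miRNA hairpins took 68.3% and 61.2% in cells, against 19.1% and 10.5% in vesicles. Levels are therefore given as counts-per-million values (CPM) on 2 scales. On the miRNA scale the denominator is the miRNA count (13480443, 11273350, 3477466 and 1854287 in the same order, host transcripts not included), and on the scale of all counts it is the whole library. In cells Dis3l2 had 42 counts under shNS against 13232 under shDis3l2, while vesicles had 1713 and 1894. Counts in a small-RNA library are not a measure of its mRNA, and the source of these was not tested. Libraries are accordingly named by their labels, and no direction below is read as an effect of less Dis3l2.

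The miR-223 unit was highest in the cell library labelled shNS on both scales. On the miRNA scale, cells labelled shNS had 11342 CPM of the unit (exact 95% interval 11286 to 11399), against 2521 (2491 to 2550) for cells labelled shDis3l2. Vesicles had 5658 CPM (5579 to 5737) under the label shNS, against 4714 (4616 to 4814) under shDis3l2. The order from high to low was cells shNS, vesicles shNS, vesicles shDis3l2 and cells shDis3l2, and none of the counting intervals overlap; the spread between replicates is not known. On the scale of all counts the cell libraries had 7745 and 1543 CPM, the vesicle libraries 1082 and 496.3, so that both vesicle libraries lay below both cell libraries. Set against the miRNA count, which does not contain it, the unit came to 1.13% and 0.252% in cells and 0.566% and 0.471% in vesicles. Ranked by counts among all hairpins and host units, it was number 24 under shNS in cells but number 47 under shDis3l2. It was number 34 and number 39 in the vesicle libraries, a smaller change of place. As each library is from bulk RNA, fewer cells with miR-223 and less miR-223 per cell cannot be told apart.

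**Figure D2:**
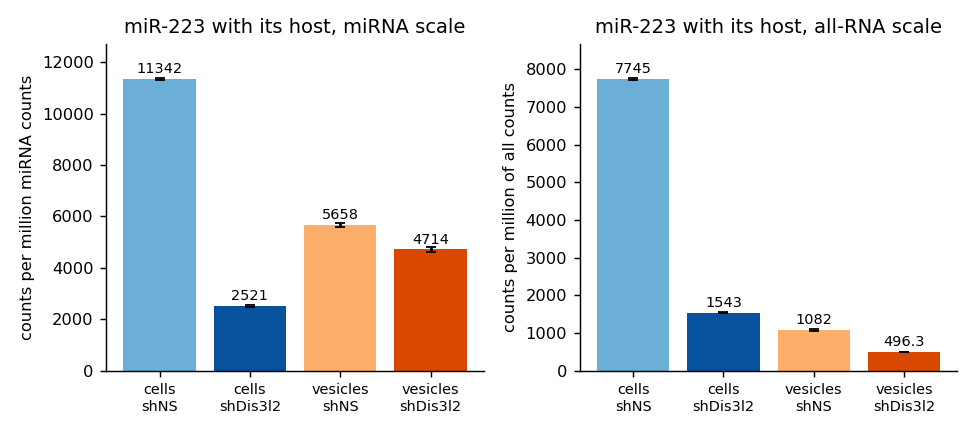
Level of the miR-223 unit in each library, in CPM on the miRNA scale (left) and on the scale of all counts (right), with exact 95% counting intervals as error bars and 1 library per bar. The cell library labelled shNS is highest on both scales, and the lowest bar is the cell library labelled shDis3l2 on the left (2521) and the vesicle library labelled shDis3l2 on the right (496.3).

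The first comparison set the labels against each other in cells. From 152898 and 28415 counts, the miR-223 unit was 4.50-fold lower with the label shDis3l2 on the miRNA scale (log2 ratio -2.17, 95% interval -2.19 to -2.15) and 5.02-fold lower on the scale of all counts (-2.33). Of the 253 hairpins and host units that reached 100 counts over this pair, 8.7% were at least 2-fold lower and 8.7% higher on the miRNA scale (10.3% and 5.93% on the scale of all counts), and the median log2 ratio was 0.04. Only 4 of these units were lower than miR-223: Mir9-2 (-3.46), known from neural cells, the neighbouring hairpins Mir212 (-2.87) and Mir132 (-2.62), and Mir34a (-2.37), the p53-responsive microRNA. Mir9-2 and Mir132 were far less abundant, at 4902 and 1056 counts under the label shNS, and Mir212 had fewer counts than either. Among the 82 units with at least 10000 counts, a minimum chosen after the values were seen, Mir34a alone was lower, with 150772 and 24409 counts.

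F630028O10Rik-202, the isoform with few counts, went the other way in cells. It was 2.13-fold higher with the label shDis3l2 (log2 1.09, 95% interval 0.42 to 1.81) from 29 and 52 counts, while F630028O10Rik-201 was 4.51-fold lower. Since the isoforms share the exon of the hairpin, their counts are divided by estimation, and the split between them may carry an error that the counting interval does not cover. In vesicles the same isoform had 10 counts with each label, too few for a direction (0.91, -0.51 to 2.33).

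The same comparison in vesicles gave a much smaller difference. From 19675 and 8742 counts, the unit was 1.20-fold lower with shDis3l2 on the miRNA scale (log2 -0.26, 95% interval -0.30 to -0.23). On the scale of all counts it was 2.18-fold lower (-1.12), and by TMM factors of edgeR and size factors of DESeq2 the log2 ratio was -0.67 and -0.51. Of 268 hairpins and host units, 4.1% were at least 2-fold lower and 28.7% higher on the miRNA scale, while on the scale of all counts these shares were 21.3% and 2.99%, and the median ratio was 0.47 and -0.39. The distance to that median is the same on both scales, and miR-223 stood at -0.73 from it (log2), with 49 units lower and 218 higher. Relative to the median of the cell comparison it stood at -2.21. Without the other host units, a choice made after seeing the data, 26 units in vesicles were at least 2-fold higher and 11 lower on the miRNA scale (77 and 11 with them).

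The label ratio of miR-223 was therefore higher in vesicles than in cells by 1.91 on the log2 scale (1.20 on the scale of all counts). The median of this difference over the 210 units measured in both compartments was 0.23 (-0.47 on the scale of all counts), and miR-223 lay 1.68 above it on either scale. Larger differences were found for 4 units: n-TStga1 (3.65), Gm47304 (2.35), Mir3069 with Scarna13 (2.03) and Mir1902 with Hipk3 (1.98). Of these, Gm47304 had 471 to 8068 counts per library and the other 3 had 32 to 796. Among the 57 units with at least 10000 counts in each comparison, 0 had a larger difference than miR-223 and the median was 0.03. Here too the minimum was chosen after the values were seen.

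**Figure D3:**
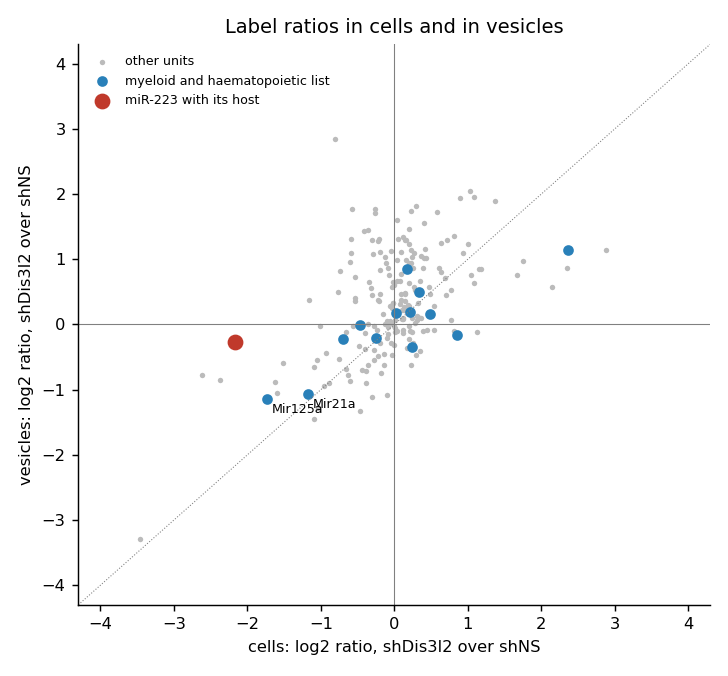
Log2 ratio of the label shDis3l2 over shNS in cells (horizontal axis) and in vesicles (vertical axis), on the miRNA scale, for 208 of the 210 hairpins and host units measured in both (the other 2 lie outside the axes), with the dotted line marking equal ratios. The miR-223 unit (red) lies far left at -2.17 but near the horizontal zero line at -0.26, whereas Mir21a and Mir125a of the myeloid list (blue) lie closer to the dotted line.

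A fit over all 4 libraries gave a label effect on the miR-223 unit in the same direction. In an edgeR quasi-likelihood fit with compartment and label as additive factors (1 residual degree of freedom), the effect of the label shDis3l2 was -1.22 on the log2 scale, with a Benjamini-Hochberg adjusted p of 0.0181 over 341 units, of which 2.93% passed as lower and 2.64% as higher. The unit was lower with that label in both compartments. The fit assumes an equal effect in cells and vesicles, so the cell and the vesicle library of a label stand in as its replicates. Its p-value is thus no measure of the spread between separate cultures. The values for the compartments were -2.17 and -0.26, and with 1 library per group the difference between them has no test.

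The other comparison asked how vesicles differ from cells. With the label shNS, the miR-223 unit was 2.00-fold lower in vesicles than in cells relative to the miRNA count (95% interval of the log2 ratio -1.02 to -0.98), which is at the 2-fold mark. Of 282 units, 6.74% were at least 2-fold lower and 45% higher, and 18 units were lower than miR-223. With the label shDis3l2, the unit was 1.87-fold higher in vesicles relative to the miRNA count (0.90, 0.87 to 0.94), where 48.4% of 275 units were at least 2-fold higher and 8.36% lower. With the label shDis3l2 the direction depended on the scale. On the scale of all counts, miR-223 was 7.16-fold lower in vesicles with the label shNS (-2.84) and 3.11-fold lower with the label shDis3l2 (-1.64), and 52.8% and 58.5% of units were at least 2-fold lower (24.5% and 26.5% higher). With edgeR TMM factors the ratios were -1.65 and -0.24, and with DESeq2 size factors -2.05 and -0.36.

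Relative to the median of all units, miR-223 stood at -1.78 for the shNS pair, against -0.04 for the shDis3l2 pair, where 136 units were lower and 138 higher. That median includes the other host units. Without them, a choice made after seeing the data, 63 units were at least 2-fold higher and 13 lower for the shNS pair (127 and 19 with them). For the shDis3l2 pair these were 68 and 18 (133 and 23 with them). Among units with at least 10000 counts, the minimum chosen after the values were seen, the median ratios were -0.07 and 0.10. Of those units, 10 of 82 had a lower ratio than miR-223 with the label shNS, and 10 of 75 a higher one with the label shDis3l2. The additive fit gave a compartment effect of -0.05 (adjusted p = 0.906, edgeR, miRNA total as scale), between the opposite values of the 2 labels, where 49.3% of 341 units passed as higher and 7.92% as lower. With TMM factors it was -0.94 (adjusted p = 0.0251, edgeR) and in DESeq2 -1.20 (adjusted p = 0.0099), both past the threshold of 0.05 as lower in vesicles. The 2 contrasts that use the cell library labelled shDis3l2 share that library, the one in which miR-223 was lowest on the miRNA scale.

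**Figure D4:**
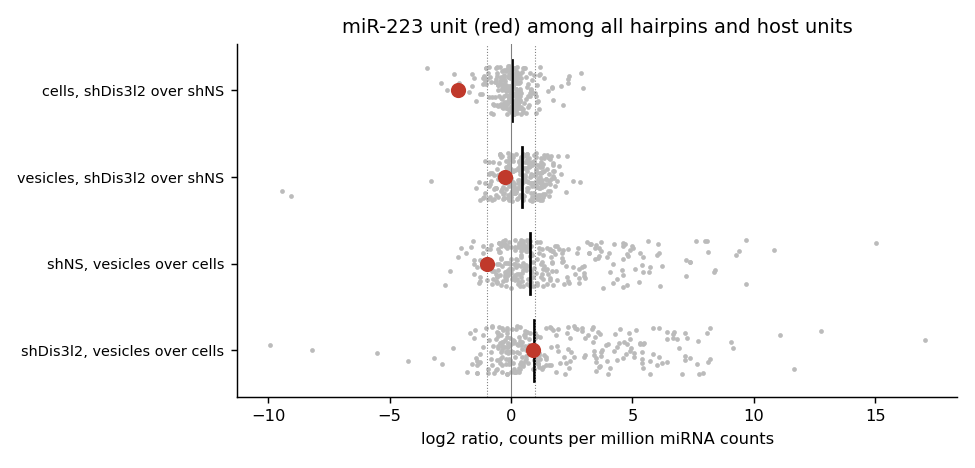
Log2 ratio of each hairpin or host unit with at least 100 counts over the 2 libraries compared (grey points, 1 per unit, spread vertically at random), for the 4 comparisons on the miRNA scale, with the median as a black bar, dotted lines at 2-fold and the miR-223 unit in red. miR-223 lies at the lower edge for the labels in cells (-2.17), while 49 of 268 units have a lower ratio for the labels in vesicles (-0.26).

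MicroRNAs of myeloid and haematopoietic cells were taken as a list of 17 for comparison, on the miRNA scale. Of these, 15 were measured in the cell comparison. With the label shDis3l2, 3 of these were at least 2-fold lower (miR-223, Mir125a and Mir21a) and 1 was at least 2-fold higher, where 8.7% of all units were lower and 8.7% higher. The median was 0.02, beside 0.04 for all units. Mir142, which is abundant throughout blood cells, was at -0.25, Mir146 and Mir155, which Toll-like receptor signalling induces, were at 0.02 and 0.22, and miR-24 with its host was at -0.46. Mir126a with its host Egfl7, best known from endothelium, was at 2.36. In vesicles 2 of 15 were at least 2-fold lower, Mir125a (-1.14) and Mir21a (-1.07), and 2 higher, Mir126a (1.14) and Mir150 (1.14), where 4.1% of all units were lower and 28.7% higher. The median over the 15 was -0.01 beside 0.47 for all units. Mir21a, induced by inflammatory signals, had a ratio of -1.18 in cells, close to that in vesicles, where the ratios of miR-223 were -2.17 and -0.26.

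Between vesicles and cells, with the label shNS, the list's median on the miRNA scale was -0.16 over 16 units, with Mir125a (-1.51) and miR-223 at least 2-fold lower and 2 units at least 2-fold higher, where 6.74% of all units were lower and 45% higher. Mir150, a microRNA of mature lymphocytes, was the highest, with 17 counts in cells against 1233 in vesicles. For the shDis3l2 pair the median was -0.05, 0 units were at least 2-fold lower and 3 at least 2-fold higher, where 8.36% of all units were lower and 48.4% higher. The medians of all units were 0.77 and 0.94.

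By its profile over the 4 libraries, miR-223 was most like hairpins that were also high in the cell library labelled shNS. Likeness was measured as the Euclidean distance over the 4 log2 levels on the miRNA scale, each unit centred on its own mean, among 162 other units with at least 100 counts in every library. The nearest were Mir27a (0.52), Mir99b (0.59), Mir574 (0.84), Mir34a (0.85) and Mir182 (0.89), against a median distance of 1.79. The closest was Mir27a, at 179050 and 52253 counts in cells (vesicles: 31745 and 11220). Its hairpin is transcribed together with Mir23a and Mir24-2, whose label ratios in cells were -0.40 and -0.13. Mir24-2 had few counts there (303 and 232). Mir99b, the next nearest, was at -1.63 in cells, with Mirlet7e and Mir125a of its cluster at -1.60 and -1.74. For Mir27a the label ratio was -1.52 in cells and -0.59 in vesicles, closer together than those of miR-223. Mir34a had the lower ratio in cells (-2.37), but also one of -0.86 in vesicles. Mir574 was the only one of the 5 with a ratio above 0 in vesicles (0.37). These points share their libraries and the miRNA total, and likeness over 4 values is a description.

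**Figure D5:**
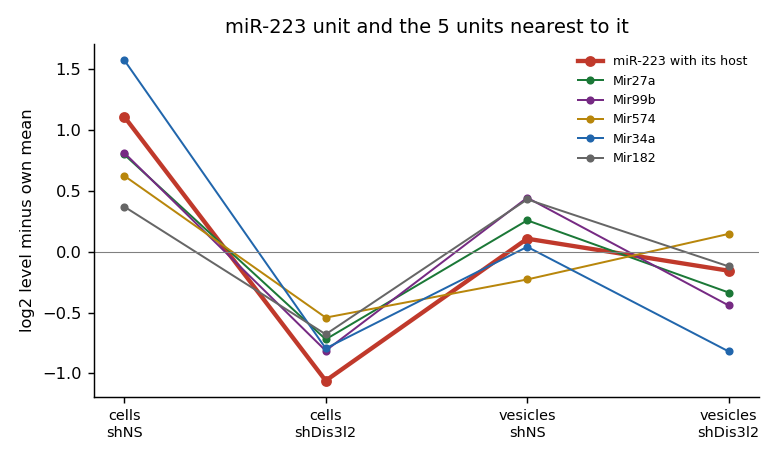
Log2 level (CPM, miRNA scale) in the 4 libraries, minus each unit's own mean, for the miR-223 unit (thick red line) and the 5 units with the smallest distance to it. Lines only join points of 1 unit; all 6 are highest in the cell library labelled shNS except Mir182, which is 0.37 there and 0.43 in the vesicle library labelled shNS.

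Most genes that act on miR-223, or that it acts on, had few counts, and their values are given with that limit. Of 7 regulators of the miR-223 gene, 4 had at least 100 counts over the cell libraries and 0 of these were 2-fold apart between the labels, where 4.57% of 3065 genes were at least 2-fold lower and 14.5% higher on the scale of all counts. In vesicles 6 were measured, again with 0 past 2-fold, where 1.88% of 8093 genes were at least 2-fold lower and 10.6% higher. Cebpa, the founding activator of the granulocyte programme, had 123 and 115 counts (log2 0.00), Cebpb 72 and 36 (-0.89) and Nfia, a reported repressor of the gene, 108 and 61 (-0.72). Runx1, a haematopoietic regulator, had 6286 and 4889 counts in cells (-0.26), and its vesicle over cell ratios were -4.70 and -4.11. Spi1, which encodes PU.1, had 22 and 38 counts in cells and 133 and 188 in vesicles (0.54).

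Of 16 reported targets of miR-223, 4 were measured in the cell comparison and 11 in the vesicle comparison, and 0 were 2-fold apart between the labels in either. Their medians were -0.48 in cells, where all 3065 genes had a median of 0.13, and 0.17 in vesicles, where the median of 8093 genes was 0.32. Mef2c had 106 and 151 counts in cells (0.61, 95% interval 0.24 to 0.98) and 906 and 1440 in vesicles (0.71, 0.59 to 0.84). Nlrp3 was listed with 37 and 42 counts in cells, and vesicles had 368 and 410 (0.20). Fbxw7 went the other way in cells, with 73 and 40 counts (-0.76, -1.36 to -0.19). The insulin-like growth factor receptor Igf1r had 118 and 78 counts in cells (-0.49, -0.93 to -0.07). Foxo3, a forkhead transcription factor, had 89 and 60 (-0.46, -0.97 to 0.02). Fragments in a small-RNA library are not a measure of mRNA levels.

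Between vesicles and cells most gene fragments were higher in vesicles on the scale of all counts. At least 2-fold higher were 76.5% of 6493 genes for the shNS pair, against 78.7% of 7013 for the shDis3l2 pair, and at least 2-fold lower 12.1% and 11.4%. Of the targets, 8 of 10 and 10 of 11 were at least 2-fold higher, with medians of 2.44 and 3.04 beside 2.22 and 2.45 for all genes. Of the regulators, 3 of 6 were at least 2-fold higher with either label, and 1, Runx1, was at least 2-fold lower. All 5 and 7 of the measured genes of miRNA processing and all 4 sorting proteins were at least 2-fold higher in vesicles. Over the same pairs of libraries miR-223 was lower in vesicles on this scale.

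Of 10 genes of miRNA processing, 4 were measured in cells with 0 past 2-fold (4.57% of all genes lower, 14.5% higher), among them Dicer1 (85 and 68 counts, -0.22), which cuts the hairpin, and Ago2, the slicing Argonaute (179 and 114, -0.55). In vesicles 1 of 8 was at least 2-fold higher with the label shDis3l2, as were 10.6% of all genes: Ago1 had 4 and 111 counts there (4.68, 3.44 to 6.74) and 1 and 28 counts in cells. The 8 had a median of 0.43, beside 0.32 for all genes. Of 4 proteins reported to sort microRNAs into vesicles, 2 of the 3 measured in cells were at least 2-fold higher with the label shDis3l2, as were 14.5% of all genes. Ybx1 had 29 and 72 counts (1.40, 0.77 to 2.09) and Hnrnpa2b1 106 and 244 (1.30, 0.97 to 1.65), while Syncrip had 127 and 127. In vesicles 0 of the 4 were 2-fold apart, with Ybx1 at 405 and 461 counts (0.23).

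The motif UCAGU, reported for YBX1, occurs in miR-223-3p from base 3, within the seed. It occurs in 58 of the 1738 mature microRNAs (3.34%). The motifs GGAG, reported for hnRNPA2B1, and GGCU, reported for SYNCRIP, occur in neither strand of miR-223, and in 13.8% and 13.3% of mature microRNAs. All were searched on the strand of the microRNA only, and none of the motifs contains another. For 19 units with UCAGU in a strand, the median vesicle over cell ratio was -0.03 for the shNS pair, against 0.14 for the shDis3l2 pair, below the medians of all units (0.77 and 0.94). With the label shNS, 16 of the other 18 had a higher ratio than miR-223, and with the label shDis3l2, 4 did. A unit holds both strands of its hairpins, so which strand gave the counts is not known.

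Markers of macrophages and of other cell types were summed per library, and their part in the results was not tested. Of the 10 macrophage genes, which include the lysozyme gene Lyz2 (2161 and 1364 counts in vesicles) and the CSF1 receptor Csf1r (818 and 1102), 6 were measured in cells, with 0 past 2-fold between the labels (4.57% of all genes lower, 14.5% higher). Their sum was 36.8 and 35.7 CPM of all counts in cells (vesicles: 316.0 and 393.6), and Itgam, an integrin of myeloid cells, was at 0 in cells labelled shNS. In vesicles 2 of the 9 measured were at least 2-fold lower (Ctsd and Mpeg1) and 1 higher (Cd14, 1075 and 3485 counts), where 1.88% of all genes were lower and 10.6% higher. The 9 neutrophil and granule genes summed to between 0.861 and 1.19 CPM in each library, and 4, 5, 4 and 3 of the 9 were at 0 in the 4 libraries, Camp and Retnlg in all of them. The 3 of 5 erythroid and serum microRNAs used here summed to 13.2 and 19.7 CPM in cells, against 286.1 and 325.2 in vesicles (miRNA scale), with Mir451a at 4 and 3 counts in cells against 376 and 157. Those of endothelium and mesenchyme summed to 474.5 and 2155 CPM in cells, against 2548 and 5484 in vesicles, nearly all of it Mir126a. Those of epithelium summed to 45.5 and 73.1 (vesicles: 107.8 and 165.6), and the lymphoid microRNAs to 218.2 and 449.2 (vesicles: 751.7 and 1144). Of the cell libraries, the one labelled shDis3l2 had the higher sum for each of these 4 miRNA lists, the opposite of miR-223. Not every member went the way of its sum. In cells Mir199a-1 was at 62.7 and 57.4 CPM, and Mir144 had 5 and 0 counts. The erythroid and serum sum in cells was nearly all Mir122 (169 and 219 counts).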

How the data were processed

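The authors deposited 1 table of estimated counts per transcript, 1 column per library, not normalized; 6.56% of values above 0 are whole numbers within 0.001. Per the labels' protocols, the QIAseq miRNA kit was used, with reads of 50 nt. Cutadapt, Salmon and Novoalign and the builds GRCm38 and mm10 are named without versions, per the submitters' processing notes; whether reads were collapsed by molecular tags was not given in the sources used here. Rows were named from GENCODE M21 (139791 of 141239), and 2022 typed as miRNA set the miRNA total, in which host counts are not included. RefSeq matched 1023 of these hairpins.

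Values were rounded to whole numbers. Log2 ratios used a pseudocount of 0.5 count and units with at least 100 counts over the 2 libraries, with exact (Clopper-Pearson) 95% intervals and a floor of 3 counts per library. Genes other than miRNAs were summed over transcripts and scaled to all counts. Units number 2007. Additive fits used edgeR 4.0.16 (quasi-likelihood) and, as an alternative, DESeq2 1.42.0 in R 4.3.3. They were also run on simulated counts with an equal label effect in both compartments and no compartment effect. Unequal label effects, as seen for miR-223, were not simulated. Other steps ran in Python 3.11.15 with scipy 1.17.1. Named genes are the members, the 5 nearest profiles, the 5 host units with the most other counts and the lists; other features named were picked after their values were seen. Members, lists and tests were chosen with earlier results of these data known. Alternatives were other scales, pseudocounts and count minimums.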

Additional observations from a re-analysis of the deposited data

How the results depend on the processing

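Each group has 1 library and no replicate number pairs them, so replicates could not be paired. The additive fits compare the labels within compartments, with 1 residual degree of freedom. In them the compartments stand in for replicates of a label, and the labels for replicates of a compartment. Their p-values therefore do not measure the spread between separate cultures. With 1 library per group none was left out in turn. The hairpin row alone gave no ratio, since it is 0 throughout. Host transcripts alone, unrounded values, a pseudocount of 5 and a miRNA total with all host units left the 4 ratios of miR-223 within their counting intervals, and the difference between the label ratios at 1.90 to 1.91.

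The scale moved them more, and the cause was not tested. In cells the label ratio was -2.33 on the scale of all counts, -2.08 by TMM (edgeR), -2.19 by the size factors of DESeq2 and -2.04 without the 5 most abundant hairpins. In vesicles it was -1.12, -0.67 and -0.51 with the first 3. The difference between them was 1.20, 1.41, 1.68 and 1.77 in that order. The vesicle over cell ratio with the label shNS was -2.84, -1.65, -2.05 and -0.96, and with the label shDis3l2 it was -1.64, -0.24, -0.36 and 0.81, so its direction depended on the scale.

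In the additive fits, the label effect was -1.35 with DESeq2 (adjusted p = 0.027) and -1.37 with edgeR and TMM factors (adjusted p = 0.0095, an alternative chosen after seeing the data). The compartment effect passed the threshold in both, at -1.20 (adjusted p = 0.0099) and -0.94 (adjusted p = 0.025), where the fit on the miRNA total gave -0.05.

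Counts of units past 2-fold were 44 for the labels in cells, 88 for the labels in vesicles, and 146 (shNS) and 156 (shDis3l2) for vesicles against cells. With a minimum of 10 counts these were 135, 191, 329 and 353, and with 1000 counts 28, 31, 55 and 61, as fewer or more units enter. Without the other host units, a choice made after seeing the data, the last 3 were 37, 76 and 86. With all counts as the scale the split of higher against lower turned from 22 and 22 to 15 and 26 in cells, from 77 and 11 to 8 and 57 in vesicles, and from 127 and 19 to 69 and 149 (shNS) and 133 and 23 to 73 and 161 (shDis3l2) between vesicles and cells.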
